A study of Mus musculus with 6 samples.

Results

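Type I interferon-stimulated genes were followed through infarcted mouse heart muscle. The 46 genes were taken by symbol from a list of genes known as targets of type I interferon, by a rule that uses no measured value, although the list was drawn up with earlier results of these data known. Of these, 44 matched a row of the table, among 16205 rows in all; Mx1 and Mx2 were dropped and are not analysed here. All 44 passed the filter on low values (a mean value of 1 or more), as did 14025 genes in all. Poly(A) RNA was sequenced from myocardium of mice at day 7 after an infarct made by tying off the left anterior descending branch of the coronary arteries. The 3 wild-type and the 3 Itih5-knockdown libraries (called KD-labelled here) share that ligation, and no uninjured heart enters the comparison. Itih5 encodes a secreted heavy chain that binds hyaluronan in the matrix, and the study asked whether it shapes scarring after infarction through the immune response. No source used here gives the strain, sex or age of the mice, the method of knockdown, or whether each library is a separate animal. The p-values therefore speak of the spread among 6 libraries, part of which may be technical.

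Infected or damaged cells sense foreign or misplaced nucleic acids through receptors such as RIG-I, MDA5, cGAS and the endosomal Toll-like receptors, and then secrete interferon beta and alpha. These bind the IFNAR receptor, whose kinases JAK1 and TYK2 activate the transcription factor complex ISGF3, with STAT2 and IRF9 among its subunits. ISGF3 binds interferon-stimulated response elements in the promoters of many antiviral genes. After infarction, nucleic acids from dying heart muscle cells taken up by macrophages are a known trigger of this programme.

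The deposited values are named TPM, a length-corrected share of the transcripts. Whether they are corrected for length could not be checked, so levels of different genes can be set beside each other only with that limit. Column sums ran from 901563 to 1159657, and low values lay near multiples of a step of 0.889 to 1.163 that differed by library (less regularly so in KD-labelled replicate 1), so differences of about 1 step say little. The table holds no counts, so the depth is unknown. Values are listed for replicates 1, 2 and 3 of wild type and then, after "against", for KD-labelled replicates 1, 2 and 3. Itih5 itself was not lower in the KD-labelled libraries (9.73, 13.1 and 17.2 against 18.4, 10.5 and 19.96), so all directions below follow the labels only. Heart muscle genes were present in every library, Tnnt2 at 1011 or more. KD-labelled replicate 1 stood apart in them, with Myh6, the alpha myosin heavy chain gene, at 1214 against 265 to 367 in the other 5 libraries.

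Many members have the letters that ISGF3 is known to read close to their start. The core of this interferon-stimulated response element (ISRE), 2 blocks of GAAA with any 2 bases between, was searched on both strands in RefSeq promoter windows (GRCm38.p6, the mm10 build), 250 bases before to 50 after the start of transcription. Of the 44 members, 35 had a window, and Ifi204, Usp18, Oas2, Rtp4, Zbp1, Dhx58, Ifi27, Parp9 and Parp14 did not. The core lay in a window of 17 of the 35 (48.6%), against 419 of 10692 tested genes with a window (3.92%). Counted by window, 3.44% of all 32851 windows held it. The element of interferon gamma, TTCNNNGAA, was in a window of 8 of the 35 members (22.9%) and of 8.31% of tested genes. The 200 bases before the start are shown for the 4 members with the smallest p-values among those with the core, 5′ to 3′ in the direction of the gene, with the matches in capitals. Oas3 has 1 match, ending 65 bases before the start. Isg15 has 3 overlapping ones in a row, ending 68, 62 and 56 bases before it. In Oas1a a pair of overlapping matches ends 10 and 4 bases before the start. Ifit3b has 2 separate ones on the opposite strand, 178 and 144 bases before the start, and the windows of Ifit3 and Ifit1 also hold 2 each on that strand. The stretches are chr5:120777660-120777859 (minus strand), chr19:34607757-34607956 (plus), chr5:120907526-120907725 (minus) and chr4:156200819-156201018 (minus).
Oas3: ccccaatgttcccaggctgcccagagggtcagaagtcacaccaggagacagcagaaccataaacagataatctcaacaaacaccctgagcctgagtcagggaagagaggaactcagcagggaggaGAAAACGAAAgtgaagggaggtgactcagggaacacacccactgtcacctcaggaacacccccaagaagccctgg
Ifit3b: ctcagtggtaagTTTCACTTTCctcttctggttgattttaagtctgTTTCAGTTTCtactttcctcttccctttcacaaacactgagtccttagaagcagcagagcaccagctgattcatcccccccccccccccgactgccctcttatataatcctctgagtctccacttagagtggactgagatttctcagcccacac
Oas1a: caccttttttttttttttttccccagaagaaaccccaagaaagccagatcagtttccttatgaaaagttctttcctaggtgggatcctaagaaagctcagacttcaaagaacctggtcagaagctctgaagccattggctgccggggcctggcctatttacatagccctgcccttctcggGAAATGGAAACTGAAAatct
Isg15: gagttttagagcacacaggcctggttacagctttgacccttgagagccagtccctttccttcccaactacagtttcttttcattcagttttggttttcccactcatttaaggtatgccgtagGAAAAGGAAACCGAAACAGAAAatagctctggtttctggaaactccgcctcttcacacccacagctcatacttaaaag

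Lgals3bp and Oasl1 are the members with the smallest p-values whose windows hold no such core, and the same stretch is given for comparison. They lie at chr11:118401960-118402159 (minus strand) and chr5:114923040-114923239 (plus strand). A missing match says only that these letters are not in the window.
Lgals3bp: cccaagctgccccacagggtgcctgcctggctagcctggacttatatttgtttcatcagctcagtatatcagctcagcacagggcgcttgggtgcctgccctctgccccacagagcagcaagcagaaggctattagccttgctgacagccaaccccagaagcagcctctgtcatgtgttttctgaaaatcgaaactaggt
Oasl1: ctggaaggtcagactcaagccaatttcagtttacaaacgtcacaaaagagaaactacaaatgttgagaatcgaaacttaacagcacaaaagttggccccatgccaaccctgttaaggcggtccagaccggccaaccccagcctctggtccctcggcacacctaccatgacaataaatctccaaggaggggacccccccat

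Most interferon-stimulated genes had lower values in the KD-labelled libraries, by modest amounts, and none passed the test. Of the 44 members, 38 had a lower and 6 a higher mean on the log2(value + 1) scale. Their differences (log2, KD-labelled minus wild type) had a median of -0.26, from -1.02 for Oas3 to 0.49 for Oas2. Over all 14025 tested genes, 49.2% had a lower mean and the median difference was 0.005. In the limma test with Benjamini-Hochberg adjustment over all genes, 0 members passed in either direction, as did 0% of all genes; the smallest adjusted p was 0.296. At an unadjusted p under 0.05, 17 members (38.6%) were lower, against 6.55% of all genes, and 1 was higher, against 8.29%. All 3 KD-labelled libraries lay below all 3 wild-type libraries for 15 members (34.1%), where 9.88% of all genes did, and above them for 1 member, where 12.6% did. For 2 of the 15, Oasl1 and Ifih1, the gap between the groups was smaller than 1 rounding step, and so was that of Oas2.

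**Figure D1:**
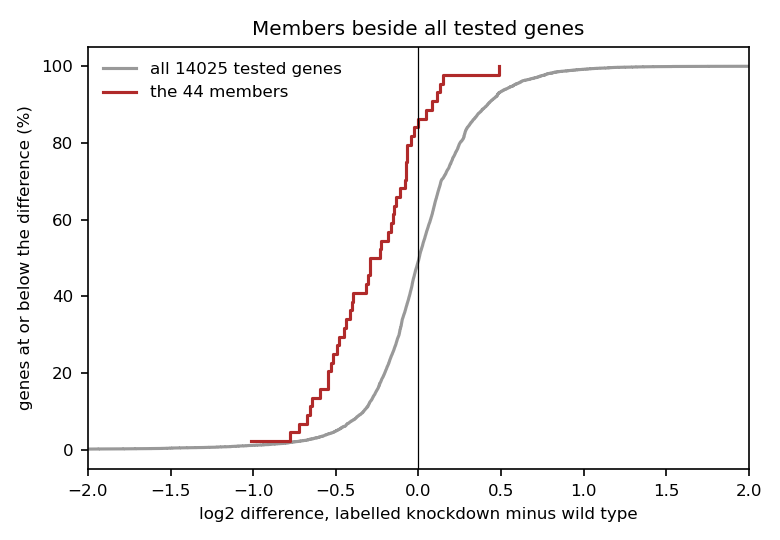
Cumulative share of genes (y axis, percent) at or below each log2 difference, KD-labelled minus wild type (x axis), for the 44 members and for all 14025 tested genes. The curve of the members lies to the left, with 86.4% of members below 0 against 49.2% of all genes.

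The count of members lower at an unadjusted p under 0.05 was 8 (18.2%) without wild-type replicate 1 and 7 (15.9%) without wild-type replicate 3, where the share over all genes also came down, to 2.38% and 2.81%. The median of the members was then -0.23 and -0.18. Without wild-type replicate 2 all KD-labelled libraries lay below both wild-type ones for 27 members (61.4%) and for 18.4% of all genes. Without wild-type replicate 1 or 3 that count was 15 members (34.1%), against 11.8% and 13.4% of all genes. Leaving out a library cannot make separate groups overlap, so the count could not fall in these fits. How libraries are scaled to each other matters for the level of every gene. Dividing each library by its column sum moved the median over all genes to -0.13 and that of the members to -0.40, so the members stood 0.27 below all genes under both scalings (-0.2688 and -0.2686). Means were then lower for 42 members and higher for 2, and lower for 67.7% of all genes. Dividing by the rounding step gave 43 and 1, with 68.9% of all genes lower.

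**Figure D2:**
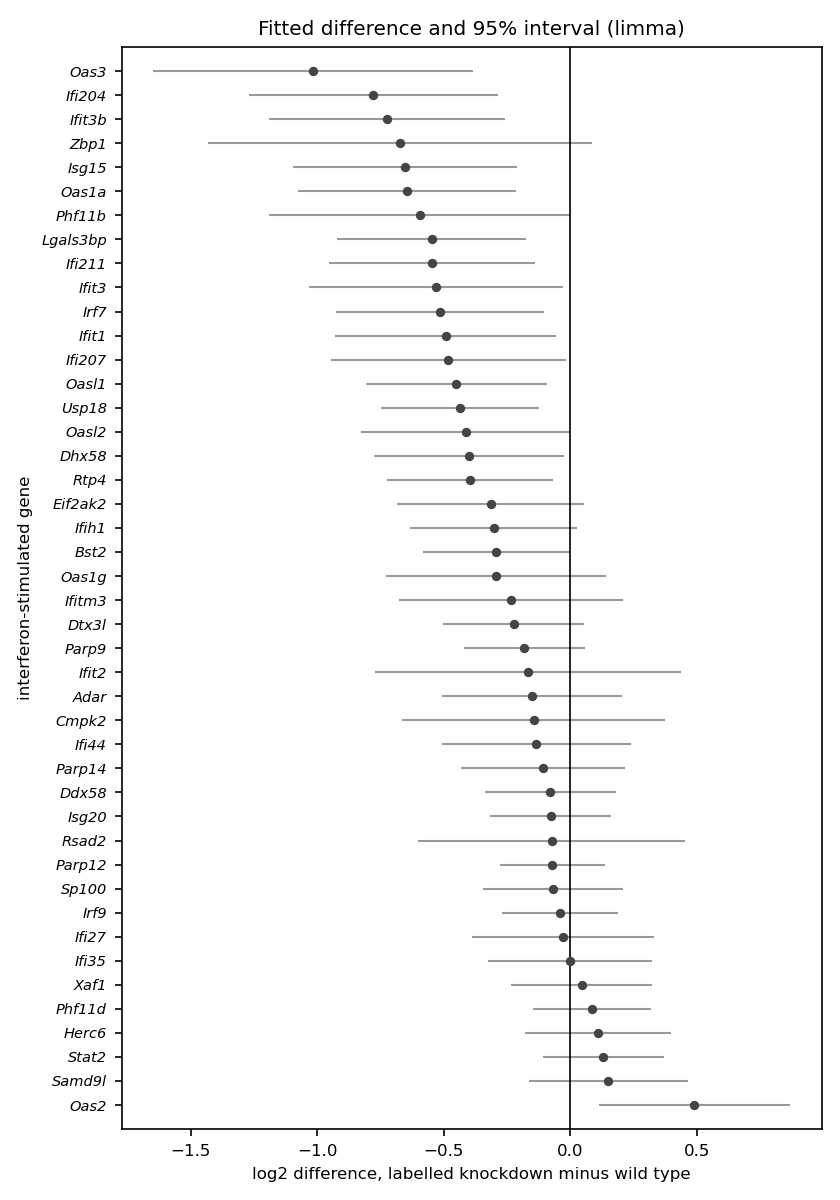
Fitted log2 difference, KD-labelled minus wild type (x axis), for each of the 44 members (y axis), with the 95% interval from limma (3 libraries a group). The largest differences are those of Oas3 (-1.02) and Ifi204 (-0.78) on the lower side and Oas2 (0.49) on the higher side.

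The 4 genes for sensors of RNA and DNA inside the cell and their regulator all had a lower mean, with only Dhx58 at an unadjusted p under 0.05. Zbp1, a sensor of left-handed nucleic acid that can start necroptosis, was at 18.6, 15.97 and 21.97 against 6.22, 13.5 and 16.97. The groups overlapped, and KD-labelled replicate 1 was far below the other 5 libraries (fitted log2 difference -0.67, SE 0.32, limma adjusted p = 0.361). Dhx58, which encodes the regulator LGP2, had a difference of -0.40 (SE 0.16), and Ifih1, the MDA5 gene, had -0.30 (SE 0.14). Ddx58, the RIG-I gene, was at 38.5 ± 4.83 (SD, n = 3) in wild type and 36.2 ± 1.04 (SD, n = 3) in the KD-labelled libraries.

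Of the 4 genes for signalling and transcription factors, 3 had a lower mean, and 2 of them, Irf7 and Usp18, had an unadjusted p under 0.05. Stat2, which encodes a subunit of ISGF3, was at 35.1, 37.6 and 33.3 against 35.97, 37.6 and 42.9. The groups overlapped, and the log2 difference was 0.13 (95% interval -0.11 to 0.37, limma adjusted p = 0.532), turning to -0.01 when libraries were scaled to their sums. Irf9, the DNA-reading subunit, was at 40.1, 36.6 and 35.2 against 35.9, 33.7 and 38.9, which overlap throughout (fitted log2 difference -0.04, 95% interval -0.27 to 0.19). Irf7 (chromosome 7, 141262706 to 141266481, minus strand), the factor that amplifies the response by driving more interferon alpha, was at 68.4, 60.1 and 70.9 against 39.9, 40.4 and 60.9. Replicates 1 and 2 of the KD-labelled group lay well below all wild-type values, and replicate 3 lay within them (fitted log2 difference -0.51, SE 0.17, limma adjusted p = 0.300). Usp18, which strips ISG15 from proteins and blocks IFNAR signalling, was at 26.4, 23.5 and 30.9 against 17.7, 22.1 and 18.96. All its KD-labelled values were below all wild-type ones, by little more than 1 step (fitted log2 difference -0.44, SE 0.13, limma adjusted p = 0.296).

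Isg15, the ubiquitin-like modifier attached to proteins during the response (chromosome 4, 156199424 to 156200818, minus strand), was at 173, 159 and 215 against 88.1, 133 and 128. Every KD-labelled library was below every wild-type library (fitted log2 difference -0.66, SE 0.19, limma adjusted p = 0.296). Herc6, its main ligase gene in mice, had the opposite sign within the spread, at 12.7, 13.2 and 16.2 against 15.2, 16.4 and 13.97 (fitted log2 difference 0.11, SE 0.12), and turned to -0.02 when libraries were scaled to their sums.

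The IFIT proteins bind viral RNA that lacks the host's cap methylation. The 4 listed IFIT genes lie within 99.3 kb on chromosome 19, from 34550694 to 34650009, in the order Ifit2, Ifit3, Ifit3b and Ifit1. All 4 had a lower mean, 3 of them at an unadjusted p under 0.05. Ifit3b was at 25.4, 25.5 and 30.96 against 14.4, 22.1 and 12.97, with no overlap (fitted log2 difference -0.72, SE 0.20, limma adjusted p = 0.296). Ifit3 was at 109, 104 and 133 against 64.8, 111 and 68.9, so that KD-labelled replicate 2 lay among the wild-type values (-0.53, SE 0.21). For Ifit1 the values were 41.1, 34.8 and 51.8 against 28.3, 36.6 and 24.95 (-0.49, SE 0.19), again with replicate 2 among the wild type. Ifit2 was at 38.1, 36.7 and 49.7 against 41.98, 48.2 and 23.95, low in KD-labelled replicate 3 only. KD-labelled replicate 3 was the lowest of the 6 libraries for Ifit1, Ifit2 and Ifit3b, and replicate 1 for Ifit3. Ifit3 and Ifit3b cannot be fully told apart, since 41.1% of the 75-base windows in Ifit3 transcripts also occur in Ifit3b transcripts.

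The OAS proteins make the second messenger that switches on RNase L, an activity that OASL1 lacks. Of the 6 members taken from this family, 5 had a lower and 1 a higher mean, and all but Oas1g had groups that did not overlap. Oas3 had the largest difference of all 44 members, at 9.80, 8.50 and 10.1 against 2.56, 6.74 and 3.99. The groups were 1.76 apart (fitted log2 difference -1.02, SE 0.27, limma adjusted p = 0.296). Its neighbour Oas2, only 3244 bases away on the same strand of chromosome 5, was the member with the largest difference on the higher side. Oas2 was at 19.5, 17.8 and 15.2 against 25.3, 20.2 and 29.95, without overlap but with a gap of 0.707, under 1 step (fitted log2 difference 0.49, SE 0.16, limma adjusted p = 0.300). It was higher in all 19 alternative settings, from 0.34 to 0.63, and passed in none (limma adjusted p from 0.236 to 0.976). Some of these settings, such as the filters on low values, cannot move the fitted difference. Oas1a was at 43.0, 37.6 and 41.9 against 19.1, 27.9 and 31.9, with no overlap (fitted log2 difference -0.64, SE 0.18, limma adjusted p = 0.296). Oas1g, which shares 36.9% of its 75-base windows with Oas1a, was at 10.8, 8.43 and 10.01 against 5.94, 7.70 and 9.98 (-0.29, SE 0.18). Oasl1, a repressor of Irf7 translation, was at 11.8, 9.41 and 12.7 against 9.34, 7.67 and 6.98 (-0.45, SE 0.15), separated by only 0.0735. Oasl2 was at 73.3, 68.6 and 71.6 against 40.1, 56.8 and 65.9 (-0.41, SE 0.18).

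**Figure D3:**
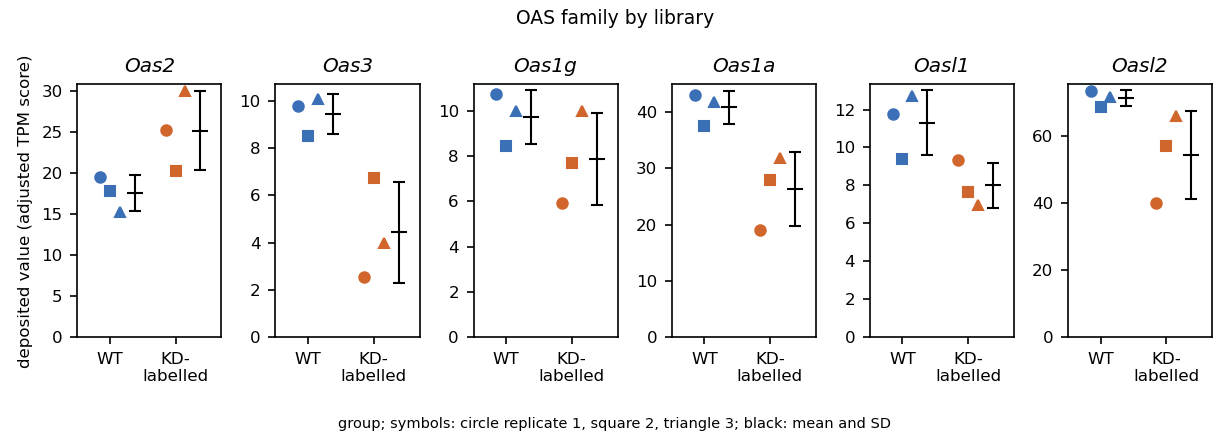
Deposited value (y axis, adjusted TPM score, from 0) of the 6 listed OAS family genes in each library, by group (x axis), with the mean and SD of 3 libraries in black. The KD-labelled values of Oas2 lie above those of wild type, and those of Oas3, Oas1a, Oasl1 and Oasl2 lie below.

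Among the other antiviral effectors, 7 of 8 had a lower mean, with 1 at an unadjusted p under 0.05, and the median was -0.15. That 1 was Bst2, the tetherin gene, whose product holds budding virus at the cell surface. It was at 410.2, 411 and 420 against 295, 339 and 382, with no overlap (fitted log2 difference -0.30, SE 0.12, limma adjusted p = 0.331). Ifitm3, which blocks viral fusion in endosomes, had the highest values of the members, at 1298, 1303 and 1264 against 954, 960.3 and 1433. The KD-labelled libraries split, with replicates 1 and 2 below and replicate 3 above every wild-type library (fitted log2 difference -0.23, SE 0.19, limma adjusted p = 0.542). Rsad2, the viperin gene, and its neighbour Cmpk2, which together yield a chain-terminating nucleotide, had their extremes in the same libraries. Rsad2 was at 25.4, 19.7 and 28.9 against 32.2, 20.2 and 18.96, and Cmpk2 at 20.6, 14.1 and 20.8 against 21.9, 15.4 and 12.97. Both were highest in KD-labelled replicate 1 and lowest in replicate 3, whereas Bst2 was lowest in replicate 1. Eif2ak2, the PKR gene, had a log2 difference of -0.31 (SE 0.16), the RNA editing enzyme gene Adar -0.15 (SE 0.15) and the exonuclease gene Isg20 -0.08 (SE 0.10). Samd9l, an antiviral and growth-restraining gene, was at 32.2, 32.8 and 41.6 against 41.7, 34.6 and 41.9 (0.15, SE 0.13), and came to -0.0008 when libraries were divided by their rounding step.

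The genes Parp9, Parp12 and Parp14 of ADP-ribosyl transfer and Dtx3l, the ubiquitin ligase partner of PARP9, all had a lower mean, with log2 differences from -0.22 (SE 0.12) for Dtx3l to -0.07 (SE 0.09) for Parp12, and none had an unadjusted p under 0.05 or separate groups. Dtx3l and Parp9 overlap by 682 bases on opposite strands of chromosome 16, and the sources used here do not say whether reads were assigned by strand.

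The HIN-200 family, whose products bind DNA in nucleus and cytoplasm, lies together on 1 stretch. The 3 members taken from it are within 190.0 kb of chromosome 1, and all 3 had separate groups and an unadjusted p under 0.05. Ifi204 was at 73.3, 64.9 and 86.5 against 31.02, 48.1 and 52.9 (fitted log2 difference -0.78, SE 0.21, limma adjusted p = 0.296). Ifi211 was at 49.9, 46.1 and 50.9 against 24.9, 36.6 and 39.9 (-0.55, SE 0.17), and Ifi207 at 48.9, 47.99 and 43.5 against 23.8, 41.5 and 36.9 (-0.48, SE 0.20). Each was lowest in KD-labelled replicate 1. The annotated span of Ifi211 lies wholly inside that of Mndal, another gene of this family on the same strand, and 23.0% of its 75-base windows also occur in Ifi204 transcripts, so reads may have been divided among them.

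The 9 remaining members split, with 7 lower and 2 higher on average, 3 of them without overlap. Lgals3bp, which encodes a secreted galectin-binding glycoprotein, was at 238, 187 and 230 against 126, 144 and 179 (fitted log2 difference -0.55, SE 0.16, limma adjusted p = 0.296). Rtp4, a receptor transporter gene that tempers the response, was at 73.4, 51.6 and 61.6 against 46.6, 43.3 and 49.9 (-0.40, SE 0.14, limma adjusted p = 0.302). Phf11b was at 37.1, 42.4 and 42.8 against 16.9, 31.8 and 34.9 (-0.59, SE 0.25), whereas its neighbour Phf11d was at 29.3, 30.99 and 33.4 against 35.9, 30.8 and 32.9 (0.09, SE 0.10). Xaf1, a pro-apoptotic gene, was at 36.1, 35.7 and 32.5 against 32.5, 33.7 and 41.9 (0.04, SE 0.12). When libraries were scaled to their sums, Phf11d came to -0.05 and Xaf1 to -0.10. Ifi27 (-0.03), Ifi35 (-0.002), the nuclear body gene Sp100 (-0.07) and Ifi44 (-0.13) had differences smaller than their standard errors.

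**Figure D4:**
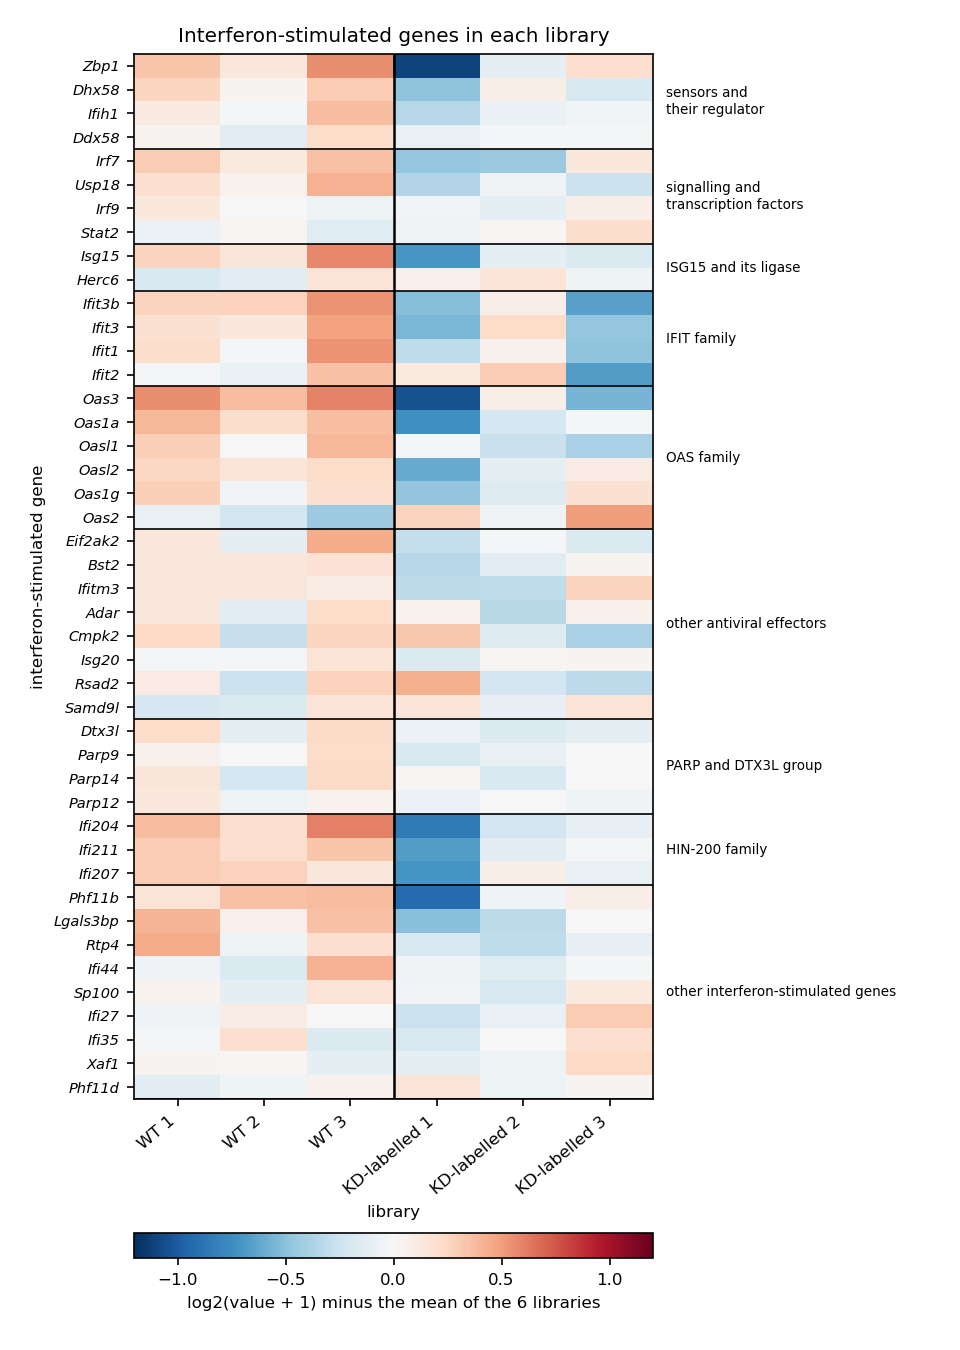
Each of the 44 members (rows, by role) in each of the 6 libraries (columns), as log2(value + 1) minus the mean of that gene over the 6 libraries; blue is below and red above that mean. Wild-type replicate 3 is the highest library for 25 members and KD-labelled replicate 1 the lowest for 24.

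The KD-labelled libraries did not contribute alike. Set against the wild-type mean, 36 members were lower in replicate 1, 40 in replicate 2 and 32 in replicate 3, with median log2 differences of -0.34, -0.23 and -0.13. Over all tested genes those medians were -0.01, 0.01 and 0.01. For 29 members all 3 KD-labelled libraries were below the wild-type mean, and for 3 all were above, where 24.98% and 25.5% of all genes did so. KD-labelled replicate 1 was the lowest of the 6 libraries for 24 members (54.5%), against 28.2% of all genes, and wild-type replicate 3 the highest for 25 (56.8%), against 18.9%. Without KD-labelled replicate 1 the median of the members was -0.23. At an unadjusted p under 0.05, 12 members (27.3%) were then lower, against 3.90% of all genes.

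Differences can also be set beside the ISRE core. Of the 17 members with the core in their window, 16 had a lower mean, with a median of -0.48 on the log2 scale. For the 18 with a window and no core, 14 had a lower mean and the median was -0.11. No test was made of this contrast, and among those with the core, Stat2 (0.13), Ddx58 (-0.08) and Rsad2 (-0.07) had small log2 differences. Irf7 (-0.51) and Lgals3bp (-0.55) have no such core and had larger ones. The 17 with the core are not all independent. They include the pairs Ifit3 with Ifit3b and Oas1a with Oas1g, which share 75-base transcript windows (41.1% of those of Ifit3, 36.9% of those of Oas1g).

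Markers of macrophages, cells that respond strongly to interferon, were lower along with the members. All 15 macrophage markers had a lower mean in the KD-labelled libraries (median log2 difference -0.54), and 0 passed in limma. All KD-labelled libraries lay below all wild-type ones for 6 of the 15, where 9.88% of all genes did. Their summed value was 9250 to 12290 in wild type and 4369 to 8667 in the KD-labelled libraries. For the 9 monocyte markers the sum was 270.1 to 441 against 135 to 267, with all 9 lower. Of the neutrophil markers 7 of 7 and of the B cell markers 7 of 8 were lower, and of the conventional dendritic cell markers 2 of 7. The 11 heart muscle markers went the other way, all 11 higher, at 8082 to 9048 against 7640 to 27040. Endothelial (7 of 7) and erythroid (5 of 5) markers were also higher on average, with median log2 differences of 0.45 and 1.25. The endothelial sum was nevertheless lowest of the 6 libraries in KD-labelled replicate 2 (599). Lower means were found for 6 of 6 mesothelial markers (median -1.24) and 5 of 6 adipocyte markers (median -2.97). Yet KD-labelled replicate 3 had the highest mesothelial (169) and adipocyte (2012) sums of the 6 libraries. Of the T and natural killer cell markers 7 of 8 (median -0.25) and of the fibroblast markers 5 of 8 (median -0.18) were lower. The macrophage score, the mean log2 deviation of its genes from their means over the 6 libraries, was lowest in KD-labelled replicate 1 (-0.80). So were the scores of the members (-0.28) and of the HIN-200 genes (-0.74). In KD-labelled replicate 2 the macrophage score was -0.01, and in wild type it was 0.14 to 0.53. The IFIT score instead was lowest in KD-labelled replicate 3 (-0.57), where the macrophage score was -0.05. In bulk tissue, fewer cells of a type and less RNA per cell cannot be told apart.

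**Figure D5:**
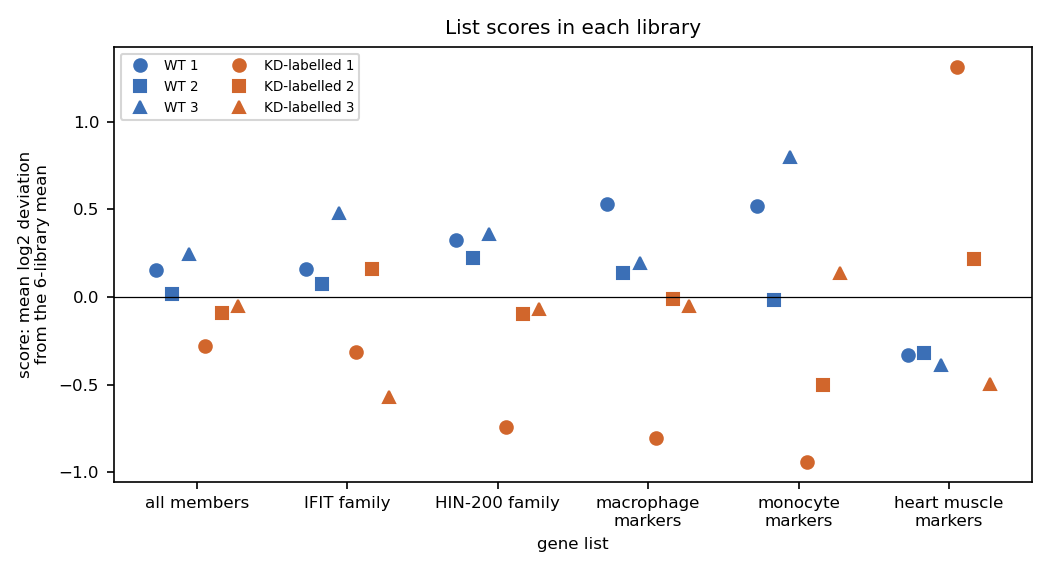
Score of each gene list (x axis) in each library, as the mean log2 deviation from the 6-library mean (y axis); blue is wild type, orange is KD-labelled, and symbols give the replicate number. HIN-200 genes and macrophage markers are lowest in KD-labelled replicate 1 (-0.74 and -0.80), and IFIT genes in replicate 3 (-0.57).

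With the macrophage score as a covariate the median of the members was -0.13, and 1 member (2.27%) was lower at an unadjusted p under 0.05, as were 118 of all 14025 genes (0.841%). The log2 difference was then -0.60 for Ifit3b, -0.49 for Oas3, -0.36 for Ifi204 and -0.33 for Isg15, and 0.52 for Oas2. Others came close to 0 or past it in the same fit, with Ifi207 at -0.03, Oasl2 at -0.04, Phf11b at -0.08, Zbp1 at 0.03 and Oas1g at 0.06. With the heart muscle score the median was -0.17, and 9 members (20.5%) were lower at that p, against 2.57% of all genes. The macrophage score was itself higher in every wild-type library (0.14 to 0.53) than in every KD-labelled one (-0.80 to -0.01). The fit with that score therefore cannot tell it apart from the label. What part the cell mix had in the result was not tested. Of the markers of plasmacytoid dendritic cells, which are potent producers of interferon, Siglech was at 1.205 to 3.77, Spib at 1.36 to 11.1, and Ccr9 and Klk1 at 0 to 0.998, the last pair about 1 rounding step at most. Tcf4 was at 62.5 to 67.4 in wild type and 73.2 to 103.7 in the KD-labelled libraries, and Cox6a2, also a heart muscle gene, at 312 to 1383 over all 6.

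Of the genes of interferon production, signalling and response outside the list, 50 were tested, 33 lower and 17 higher on average. In limma 0 passed (7 lower and 1 higher at an unadjusted p under 0.05). Over all genes 49.2% had a lower mean, and 6.55% were lower and 8.29% higher at that p. Of the 10 interferon genes looked for, only Ifng matched a row, at 0.977, 0.939 and 0 against 0 in each KD-labelled library, about 1 step at most; it was not tested. Of 8 receptor and kinase genes, 6 had a lower mean. Ifngr2, a receptor chain for interferon gamma, was at 62.5, 58.3 and 63.3 against 51.3, 53.9 and 50.9, with no overlap (fitted log2 difference -0.23, SE 0.08, limma adjusted p = 0.306). The kinase gene Jak1 (-0.15) overlapped between the groups, as did the type I receptor genes Ifnar1 (-0.06) and Ifnar2 (-0.13), which were named beside those chosen by p.

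Among 14 genes of nucleic acid sensing and IRF activation, 10 had a lower mean. Tlr7, the endosomal sensor of single-stranded RNA, was at 27.4, 19.7 and 26.4 against 11.99, 18.3 and 12.97, without overlap (fitted log2 difference -0.74, SE 0.19, limma adjusted p = 0.296). Tlr9, the sensor of unmethylated DNA, was low throughout, at 4.91, 2.81 and 7.38 against 1.32, 2.87 and 1.995 (-0.94, SE 0.32), and the STING gene Tmem173 was at 55.7, 53.6 and 64.3 against 44.4, 50.1 and 48.9 (-0.27, SE 0.10). Irf3, a factor that switches on interferon beta, was the only gene of this list that was higher without overlap, at 50.7, 56.3 and 43.98 against 57.9, 57.8 and 76.9 (0.34, SE 0.15), and was singled out after its values were seen. Of the other regulatory factors, Irf8 had -0.33 (SE 0.21), Irf1 had 0.06 (SE 0.12) and Irf2 had 0.003 (SE 0.09). Of 7 negative regulators, 6 had a lower mean, with Ptpn6 at -0.58 (SE 0.26), Samhd1 at -0.32 (SE 0.16) and Socs3 at -0.27 (SE 0.21).

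Genes induced mainly by interferon gamma comprised 11 lower and 8 higher of 19 tested, with a median of -0.09 on the log2 scale. Gbp4, a guanylate-binding protein gene, was at 9.75, 8.37 and 8.85 against 21.5, 10.6 and 15.97, without overlap (fitted log2 difference 0.72, SE 0.23, limma adjusted p = 0.299). Irgm2, a regulator of immunity-related GTPases, was at 37.2, 33.8 and 41.8 against 26.97, 28.9 and 30.9 (-0.36, SE 0.11), and the chemokine gene Cxcl10 had -0.65 (SE 0.29). Whether this list and the members differ in their shift was not tested.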

How the data were processed

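The authors deposited a table with a symbol and a value per library, named TPM by its file. The deposited values are an adjusted score and not plain TPM, since column sums and rounding steps differ by library; the test planned for TPM was kept. The build is mm10, per the submitters' processing notes; no source used here names the aligner, quantifier, annotation or adjustment between libraries. Libraries were made from poly(A) RNA, per the labels' protocols. For duplicated symbols, 6 rows of lower mean were left out. The scale was log2(value + 1), with 14025 genes at a mean of 1 or more, so fold changes of low genes are understated. Groups were compared with the limma 3.58.1 moderated test (R 4.3.3, intensity trend, no covariate), with Benjamini-Hochberg adjustment over all genes at 0.05. The fit was tested on simulated data. Depth is unknown and no count model was used.

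The members, like the other lists, were chosen with earlier results of these data known, and no test was made over a list. The rule for full values took the 12 members with the smallest p, 5 well-known ones and up to 6 of opposite direction; Ifit1, Ifit2, Ifit3, Oas1g, Oasl2, Bst2, Rsad2, Cmpk2, Zbp1, Ifi207 and Phf11b were added after their values were seen, for their family or neighbours. Alternatives changed pseudocount, filter, scaling, fit, covariates, replicate block and libraries. Positions are from GENCODE M21, promoters from RefSeq. Protein identities that had been planned were replaced by exact 75-base windows shared between GENCODE transcripts. One pathway gene that the rule would name is not reported here.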

Additional observations from a re-analysis of the deposited data

How the results depend on the processing

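In all 19 alternatives no member passed the adjusted threshold in limma. The number of members with a lower mean, 38 as reported, was 32 (macrophage score as covariate) to 43 (divided by the rounding step). The share of all genes with a lower mean, 49.2% as reported, was 41.6% (without mitochondrial genes) to 68.9% (divided by the rounding step). The median of the members, -0.26 as reported, was -0.40 with libraries scaled to their sums, -0.41 divided by the rounding step and -0.13 with the macrophage score as covariate. Leaving out single libraries gave -0.34 to -0.18. The count of members lower at an unadjusted p under 0.05, 17 as reported, was 11 without mitochondrial genes, 9 with the heart muscle score and 1 with the macrophage score. Without single libraries it was 7 to 17. The share of all genes lower at that p, 6.55% as reported, was 4.39%, 2.57%, 0.841% and 2.38% to 8.82% in turn. Without single libraries the non-overlapping count, 15 as reported, was 15 to 27, against 11.8% to 18.4% of all genes. It could not fall there, since leaving out a library cannot make separate groups overlap. Without mitochondrial genes it was 11 (25.0%, against 6.61% of all genes), and with quantile normalization 16 (36.4% against 11.4%). Scaled to the sums it was 20 (45.45% against 17.1%), and divided by the step 21 (47.7% against 21.3%). Over all genes, 919 were lower and 1162 higher at that p as reported, 1398 and 458 scaled to the sums, 643 and 1550 without mitochondrial genes, and 1330 and 405 divided by the step. Divided by the step, 22 genes passed (10 lower, 12 higher), none of them members, and 13 lower genes passed without KD-labelled replicate 3 and 2 without wild-type replicate 2, again none of them members. A lower mean held under the reported setting and all alternatives for 25 members and a higher one for 1 (Oas2), and 18 changed sign somewhere. The filter, fit and replicate block alternatives leave every fitted difference as it was, so the sign could not change under them. Scaled to the sums, Stat2 was at -0.0097, Herc6 at -0.0243, Phf11d at -0.0540 and Xaf1 at -0.0950; divided by the step, Stat2 was at -0.0203, Samd9l at -0.0008, Herc6 at -0.0345, Phf11d at -0.0646 and Xaf1 at -0.1055. Irf9 was at 0.0032 without mitochondrial genes and 0.0019 with the macrophage score, with which Phf11d was at -0.0515. Without single libraries Irf9 ranged from -0.0948 to 0.0090 (above 0 without wild-type replicate 1 or KD-labelled replicate 2) and Xaf1 from -0.066 to 0.1122 (below 0 without replicate 3 of either group). The cause of these changes was not tested. Replicate numbers are shared by the groups, and whether they pair the libraries is not given. Deviations of same-numbered libraries correlated across genes at 0.06, 0.06 and 0.14, and those of differently numbered ones at -0.11 to 0.06. Correlations this weak cannot settle whether the libraries are paired. With the replicate block, 16 members (36.4%) were lower at an unadjusted p under 0.05, against 5.45% of all genes. Unknown depth and the rounding step limit what can be said of low members such as Oas3 and Oas1g.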
